A study of Canis lupus familiaris with 18 samples.

Results

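Genes of glycolysis and of the response to low oxygen were followed through 18 canine primary osteosarcomas. The set held 45 genes in 4 lists: 17 glycolytic enzymes, 8 genes of fuel transport and its control, 17 other hypoxia targets, and 3 subunits of the hypoxia-inducible factors (HIF). Each gene was represented by the probe set of highest mean over the 18 arrays among those that the platform annotation gives to that 1 symbol. Of the 45 genes, 44 had such a probe set, among 15115 genes with 1 symbol on the array. LDHB was the exception, since its 2 listed probe sets carry several symbols. The tumours fell into 9 from dogs with normal and 9 from dogs with increased serum alkaline phosphatase (ALP), an enzyme released mainly from bone and liver, and 1 Affymetrix canine array was run per tumour. No agent, allele or time point is named for any dog, age, sex and breed are not given in the sources used here, and no normal tissue was analysed here. Tissue had been frozen at surgery, biopsy or necropsy, and which tumour came from which procedure is not given in the sources used here. Levels are log2(signal + 16) of a probe set, a scale that understates the change of dim probe sets, and differences are increased minus normal ALP on that scale. Levels of different genes cannot be set against each other, since each probe set binds with its own strength.

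Glycolysis turns glucose into pyruvate in the cytosol, and lactate dehydrogenase turns pyruvate into lactate, which leaves the cell through monocarboxylate transporters. When oxygen is short, prolyl hydroxylases no longer mark the HIF alpha subunits for destruction, and HIF then raises transcription of most of these enzymes, of glucose transporters, and of genes for vessel growth, pH control and mitochondrial turnover. HIF alpha subunits are controlled mainly at the protein level, which an mRNA array does not measure. Rapidly growing bone tumours are known for poorly perfused regions.

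Of the mRNAs that mark bone-forming cells, some were high in every tumour and others varied. COL1A2 lay between 14.59 and 15.09, SPARC between 13.52 and 14.43, and IBSP, a mineral-binding bone protein, between 4.85 and 14.21, the lowest tumour being under the filter level of 6.149. The bone transcription factor RUNX2 and PHEX, a peptidase of bone cells, were also below that level in their lowest tumours, at 6.04 and 5.01. COL1A2 and SPARC are made by other connective tissue cells too. On their means over 18 tumours, all 9 osteoblast markers with a probe set passed the filter on dim probe sets. The upper quartiles of the deposited arrays lay between 8.01 and 8.27. Increased ALP replicates 3 and 6 stood apart, with a spike-in signal of 10.65 and 10.13 against at most 9.46 elsewhere. The 3' minus 5' difference of the GAPDH control probe sets, a measure of RNA integrity, was 2.06 and 2.37 in these 2 tumours, 1.90 in increased ALP replicate 5, and 1.05 to 1.56 in tumours with normal ALP. The 3' minus middle difference of the actin controls was 0.37 to 0.48 with normal and 0.43 to 1.15 with increased ALP. In bulk tissue, fewer cells of a type and less RNA per cell cannot be told apart.

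The first question was whether these genes differed with the serum enzyme, and no member was called different. Of the 39 members tested in the limma fit, 0 passed an adjusted p under 0.05, and of all 25754 probe sets tested 0.00% passed. At an unadjusted p under 0.05 there were 3 members, GPI and PFKP lower and PDK1 higher with increased ALP. The same threshold took 6.14% of all probe sets, 1.92% higher and 4.22% lower, so 3 of 39 is near that background. These members changed with the setting: GPI was not among them with 75th percentile scaling, GPI alone was with the GAPDH 3' to 5' difference as a covariate, and DDIT4 took the place of PDK1 with the replicate block. Scaling each array to its 75th percentile changed the whole-array split to 719 higher and 887 lower, against 494 and 1088. The 2 groups overlapped for each of the 44 members, and 0.00% of all probe sets had groups that did not overlap. Members below the filter on dim probe sets (a mean under 6.149) were PFKFB4, CA12, EGLN3 and STC2, and they have levels but no test. GAPDH was represented by a control probe set kept out of the fit.

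**Figure D1:**
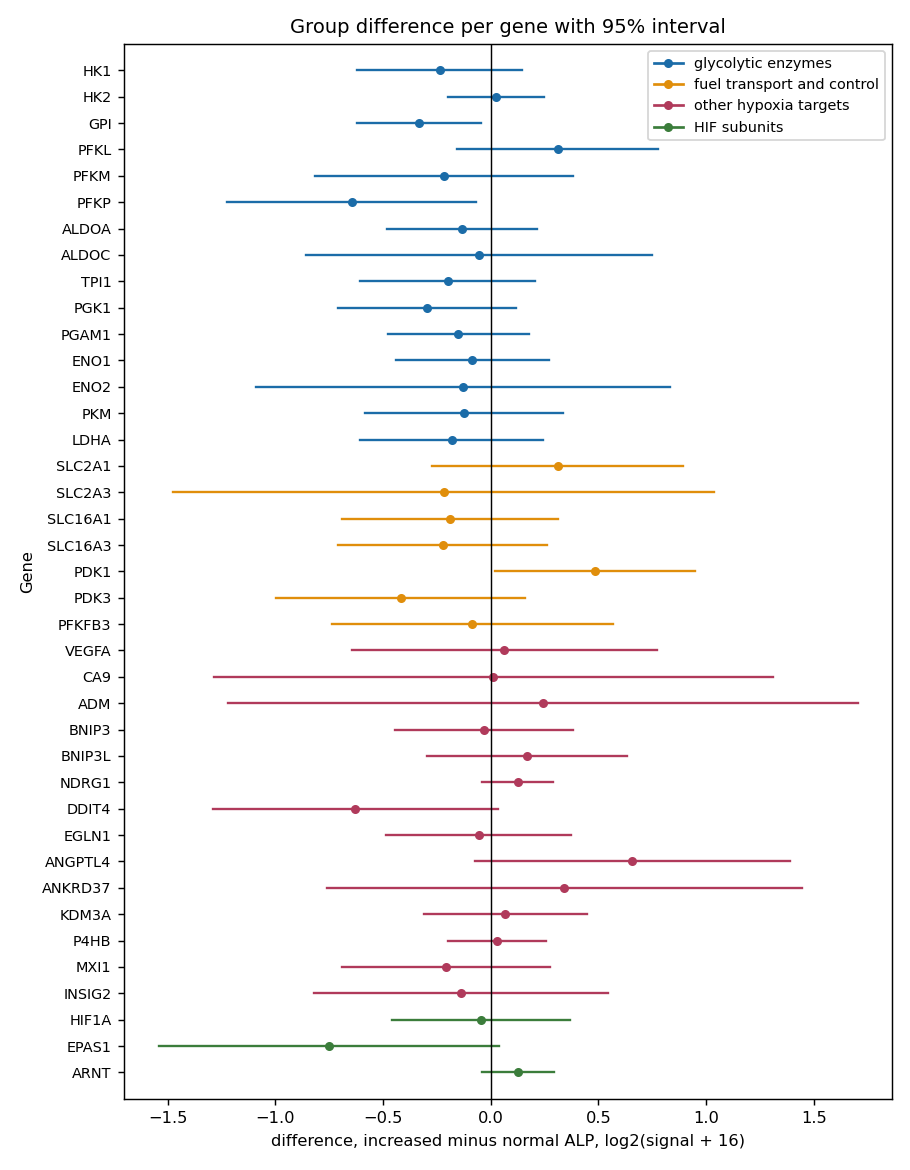
Difference between the ALP groups (increased minus normal, log2(signal + 16), horizontal axis) for the 39 members tested (vertical axis), with the 95% interval from limma; colours mark the 4 lists. The intervals of GPI, PFKP and PDK1 leave out 0, and that of ADM is wide, from -1.22 to 1.70.

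Among glycolytic enzymes, 13 of the 15 tested had a lower mean with increased ALP and 2 a higher one, with a median difference of -0.15. Over all probe sets tested, 13268 of 25754 had a higher mean and the median difference was 0.0066. None of the 13 was called lower. The median of the list was -0.32 when the actin measure was a covariate, where 12 of 15 were lower, and -0.089 with array weights.

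The first steps trap and rearrange glucose. HK1, a hexokinase of most tissues, ran from 7.01 to 8.69 over the 18 tumours (mean 7.99). The level of HK2, the hexokinase that HIF raises, was 6.51 to 7.06 (median 6.81) with normal ALP and 6.49 to 7.47 (median 6.82) with increased ALP. Its difference was 0.024 ± 0.11 (SE; unadjusted p = 0.821, adjusted p = 0.982 in limma), and its range was narrow apart from 1 tumour at the top of the increased group. GPI, which turns glucose 6-phosphate into fructose 6-phosphate, had levels of 11.74 to 12.45 (median 12.07) with normal ALP and 11.19 to 12.33 (median 11.74) with increased ALP. The 3 tumours of highest GPI included 2 with normal ALP, and the lowest, increased ALP replicate 3, lay apart at 11.19 with the next at 11.52. The difference of GPI was -0.33 ± 0.14 (SE; unadjusted p = 0.0255, adjusted p = 0.744 in limma), and it stayed between -0.41 and -0.26 on leaving out any 1 array.

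Phosphofructokinase, the main control point of the pathway, is built from 3 kinds of subunit, each from its own gene. PFKP, the platelet-type subunit, stood at 7.89 to 9.78 (median 8.84) with normal ALP and 7.34 to 8.98 (median 8.42) with increased ALP. Its difference was -0.65 ± 0.28 (SE; unadjusted p = 0.03, adjusted p = 0.76 in limma), and 4 tumours with increased ALP lay below every tumour with normal ALP. That difference was -0.36 with array weights. PFKL, the liver-type subunit, had a higher mean with increased ALP, at 9.69 to 11.03 (median 10.32) with normal ALP and 9.68 to 11.75 (median 10.52) with increased ALP, a difference of 0.31 ± 0.22 (SE; unadjusted p = 0.179, adjusted p = 0.856 in limma). PFKL correlated across tumours with the GAPDH 3' minus 5' difference (r = 0.721, n = 18), and its group difference was 0.076 when that measure was a covariate and 0.065 without increased ALP replicates 3 and 6. PFKM, the muscle-type subunit, had levels of 8.22 to 10.30 (median 9.19) with normal ALP and 8.40 to 9.81 (median 9.13) with increased ALP and a difference of -0.22 ± 0.29 (SE; unadjusted p = 0.456, adjusted p = 0.917 in limma).

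Aldolase splits the sugar into a pair of trioses. ALDOA, the main isoform outside liver and brain, ran from 12.11 to 13.41 over the 18 tumours (mean 12.82) and ALDOC, the brain isoform, spread far wider, at 8.40 to 10.78 (median 9.05) with normal ALP and 8.12 to 11.30 (median 9.27) with increased ALP. The difference of ALDOC was -0.054 ± 0.38 (SE; unadjusted p = 0.89, adjusted p = 0.989 in limma). At 11.30, increased ALP replicate 6 had the highest ALDOC level, well above the next tumour of its group at 9.44. TPI1, which interconverts the trioses, ran from 11.17 to 12.59 over the 18 tumours (mean 11.98), with a difference of -0.20. GAPDH, often used as a reference gene, was 13.27 to 14.23 (median 13.78) with normal and 13.21 to 14.03 (median 13.60) with increased ALP at the control probe set of its 3' end. The difference was -0.19, with p = 0.157 in a two-sided exact permutation test, and its adjusted p in a limma fit that kept control probe sets was 0.852. At the control probe set of its 5' end the difference was -0.46 (exact p = 0.0381, not adjusted), and the 5' level correlated with the 3' minus 5' difference (r = -0.801, n = 18), a relation built into that difference.

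The last steps of the pathway yield ATP and pyruvate. PGK1, which makes ATP, stood at 11.45 to 12.75 (median 12.22) with normal ALP and 11.24 to 12.92 (median 11.86) with increased ALP, a difference of -0.30 ± 0.20 (SE; unadjusted p = 0.149, adjusted p = 0.854 in limma). With the actin measure as a covariate the difference was -0.48 for PGK1 and -0.44 for LDHA. PGAM1 ran from 12.33 to 13.69 over the 18 tumours (mean 13.00) and the enolase ENO1 from 12.72 to 14.27 over the 18 tumours (mean 13.65), with differences of -0.15 and -0.085. ENO2, the enolase of neurons and endocrine cells, was the most variable enzyme of the list, at 6.15 to 10.26 (median 7.68) with normal ALP and 5.95 to 8.39 (median 7.86) with increased ALP. Normal ALP replicate 7 had an ENO2 level of 10.26, with the next tumour at 8.64. The ENO2 difference was -0.13 ± 0.46 (SE; unadjusted p = 0.782, adjusted p = 0.979 in limma), and 0.18 without that tumour. The pyruvate kinase PKM ran from 7.52 to 9.21 over the 18 tumours (mean 8.45), and its 2 probe sets opposed each other, at -0.13 and 0.43. LDHA, the lactate-forming subunit of lactate dehydrogenase, had levels of 12.54 to 14.20 (median 13.15) with normal ALP and 12.21 to 13.57 (median 13.10) with increased ALP. The highest LDHA level, 14.20 in normal ALP replicate 2, stood apart from the next at 13.57, and the group difference was -0.18 ± 0.20 (SE; unadjusted p = 0.382, adjusted p = 0.905 in limma).

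**Figure D2:**
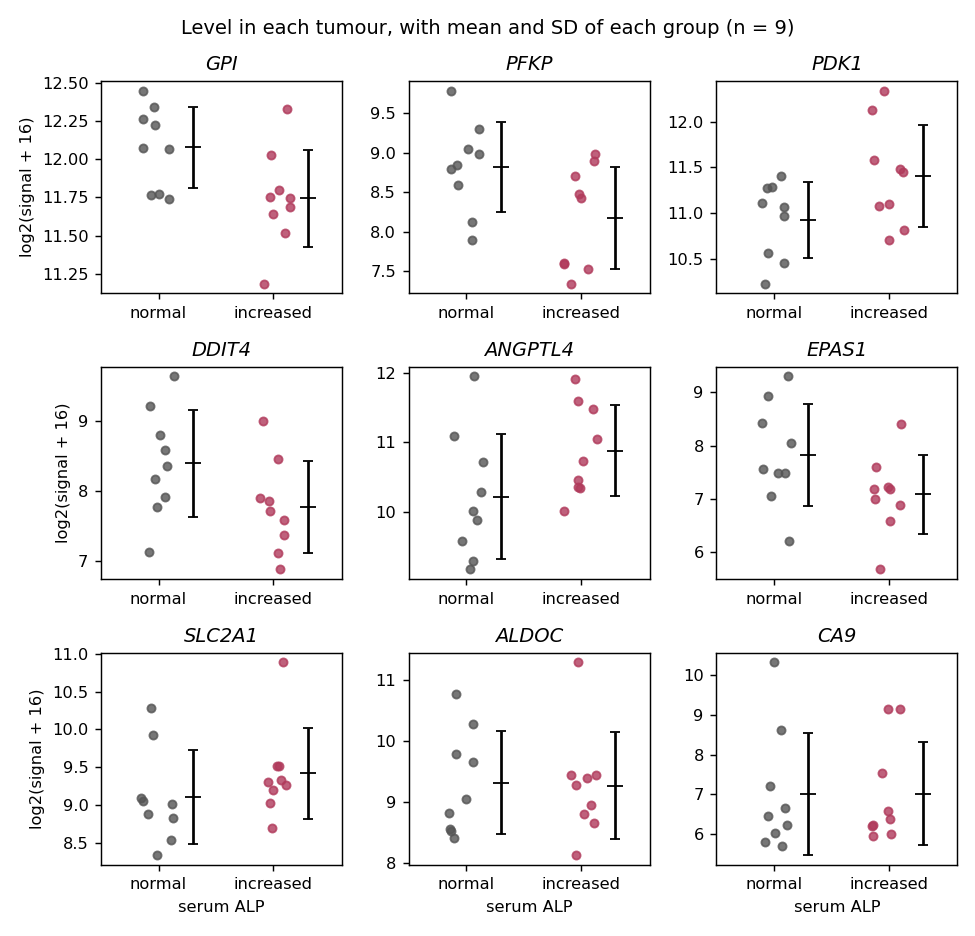
Level of 9 genes in each tumour (log2(signal + 16), vertical axes) by serum ALP group, with the mean and SD of each group of 9 beside the points. The groups overlap in all 9 panels, and single tumours stand high in SLC2A1 (10.89), ALDOC (11.30) and CA9 (10.33).

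Transporters and control enzymes split as well, with 2 of 7 tested members higher and 5 lower (median difference -0.19). The glucose transporter SLC2A1 (GLUT1) was 8.33 to 10.29 (median 9.02) with normal ALP and 8.70 to 10.89 (median 9.30) with increased ALP. The difference was 0.31 ± 0.28 (SE; unadjusted p = 0.277, adjusted p = 0.881 in limma), and it was 0.13 without increased ALP replicate 6, whose level of 10.89 lay above all other tumours. SLC2A3 (GLUT3), a transporter of high glucose affinity, spanned the widest range of this list, at 9.90 to 13.11 (median 11.11) with normal ALP and 9.31 to 13.50 (median 10.81) with increased ALP. Its signal differed 18.6-fold between the highest and lowest tumours, and both groups held tumours near either end. Its difference was -0.22 ± 0.60 (SE; unadjusted p = 0.719, adjusted p = 0.967 in limma). SLC16A3 (MCT4), which exports lactate, had levels of 7.15 to 8.21 (median 7.49) with normal ALP and 6.80 to 8.49 (median 7.45) with increased ALP and a difference of -0.22 ± 0.23 (SE; unadjusted p = 0.347, adjusted p = 0.9 in limma). SLC16A1 (MCT1), which carries lactate either way, ran from 5.79 to 8.16 over the 18 tumours (mean 6.42), and normal ALP replicate 2 was alone above 7.04.

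Pyruvate dehydrogenase kinases keep pyruvate out of the mitochondria. PDK1 was the 1 member higher at an unadjusted p under 0.05, at 10.23 to 11.40 (median 11.06) with normal ALP and 10.70 to 12.34 (median 11.45) with increased ALP. Its difference was 0.48 ± 0.22 (SE; unadjusted p = 0.0426, adjusted p = 0.802 in limma), with 5 tumours with increased ALP above every tumour with normal ALP, and it was 0.28 with array weights and 0.78 when the actin measure was a covariate. The second PDK1 probe set stood at 0.43. PDK3, a HIF-responsive kinase of the same family, had a lower mean with increased ALP, at 9.58 to 11.60 (median 10.47) with normal ALP and 9.08 to 10.77 (median 9.98) with increased ALP and a difference of -0.42 ± 0.28 (SE; unadjusted p = 0.147, adjusted p = 0.854 in limma). The second PDK3 probe set, of similar brightness, stood at -0.078. Of the enzymes that set fructose 2,6-bisphosphate, the activator of phosphofructokinase, PFKFB3 had levels of 8.19 to 9.86 (median 9.40) with normal ALP and 8.01 to 10.58 (median 9.01) with increased ALP and a difference of -0.085 ± 0.31 (SE; unadjusted p = 0.787, adjusted p = 0.979 in limma). PFKFB4 was dim in all tumours, from 5.22 to 5.57 over the 18 tumours (mean 5.42).

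The other hypoxia targets had 9 of 14 tested members higher and 5 lower, with a median difference of 0.046, which is close to that of all probe sets. Several of them varied widely between tumours. The median SD of this list over 18 tumours was 0.61, close to the 0.62 of fuel transport and control. It was 0.45 for the enzymes and 0.36 for all probe sets tested. VEGFA, the main growth factor for vessels, stood at 9.23 to 11.19 (median 10.36) with normal ALP and 9.36 to 11.95 (median 10.18) with increased ALP. Its difference was 0.062 ± 0.34 (SE; unadjusted p = 0.857, adjusted p = 0.987 in limma), and the highest and lowest tumours lay 2.72 apart. CA9, a membrane carbonic anhydrase that is widely used as a hypoxia marker, was 5.70 to 10.33 (median 6.45) with normal ALP and 5.94 to 9.14 (median 6.37) with increased ALP. Most tumours sat near the low end, and 4 tumours, 2 of each group, lay above 8. Those were 10.33 in normal ALP replicate 7, 9.14 and 9.14 in increased ALP replicates 6 and 7, and 8.61 in normal ALP replicate 2. The difference was 0.011 ± 0.62 (SE; unadjusted p = 0.986, adjusted p = 0.999 in limma). The related CA12 was dim, from 5.65 to 6.60 over the 18 tumours (mean 6.05).

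ADM, which encodes the vasodilator adrenomedullin, had the widest range of all members, at 7.95 to 11.29 (median 9.22) with normal ALP and 7.34 to 12.59 (median 9.58) with increased ALP. Its signal was 42.2-fold higher in the highest than in the lowest tumour, and both of these tumours belonged to the increased group. The difference was 0.24 ± 0.70 (SE; unadjusted p = 0.734, adjusted p = 0.971 in limma), and it was -0.12 without increased ALP replicate 6. ANGPTL4, a secreted inhibitor of lipoprotein lipase, had the largest positive difference of the members, at 9.18 to 11.94 (median 10.01) with normal ALP and 10.01 to 11.90 (median 10.73) with increased ALP. The lowest tumour with increased ALP lay at the median of those with normal ALP, and the difference was 0.66 ± 0.35 (SE; unadjusted p = 0.0756, adjusted p = 0.834 in limma). It was 0.17 when the actin measure was a covariate, and ANGPTL4 correlated with that measure across tumours (r = 0.57, n = 18). The part of RNA quality was not tested. The other tested probe sets of ANGPTL4 had smaller differences, of 0.59 and 0.26. ANKRD37, a small ankyrin-repeat protein, had levels of 7.37 to 11.00 (median 9.61) with normal ALP and 8.09 to 11.83 (median 9.41) with increased ALP and a difference of 0.34 ± 0.53 (SE; unadjusted p = 0.525, adjusted p = 0.933 in limma).

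DDIT4 (REDD1), an inhibitor of the growth kinase complex mTORC1, was lower on average with increased ALP, at 7.13 to 9.64 (median 8.35) with normal ALP and 6.88 to 9.01 (median 7.72) with increased ALP. The difference was -0.63 ± 0.32 (SE; unadjusted p = 0.0609, adjusted p = 0.823 in limma), and its second probe set stood at -0.56 ± 0.24 (unadjusted p = 0.0335, adjusted p = 0.773). The DDIT4 difference was -0.26 when the actin measure was a covariate. NDRG1, a stress-response gene, was dim, with a mean of 6.58 against the filter level of 6.149, so its narrow range does not show stable expression. It stood at 6.32 to 6.80 (median 6.50) with normal ALP and 6.43 to 6.89 (median 6.68) with increased ALP. The difference of NDRG1 was 0.12 ± 0.079 (SE; unadjusted p = 0.132, adjusted p = 0.85 in limma). MXI1, which opposes MYC, had levels of 8.28 to 10.21 (median 8.92) with normal ALP and 8.31 to 9.83 (median 8.66) with increased ALP and a difference of -0.21 ± 0.23 (SE; unadjusted p = 0.381, adjusted p = 0.905 in limma).

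The mitophagy receptors BNIP3 and BNIP3L ran from 5.92 to 7.43 over the 18 tumours (mean 6.41) and from 8.35 to 9.99 over the 18 tumours (mean 9.02), with differences of -0.03 and 0.17. KDM3A, a histone demethylase that HIF raises, ran from 8.78 to 10.22 over the 18 tumours (mean 9.59), and INSIG2, a regulator of sterol synthesis, from 8.73 to 11.23 over the 18 tumours (mean 9.59). P4HB, which is a subunit of the collagen prolyl hydroxylase as well as a disulfide isomerase, stayed within 13.36 to 14.30 over the 18 tumours (mean 13.82). A second P4HB probe set ran the other way between the groups, at -0.55 against 0.03, and correlated with the actin 3' minus middle difference (r = -0.827, n = 18). STC2, a secreted glycoprotein, was dim in all tumours, from 5.46 to 6.24 over the 18 tumours (mean 5.76).

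Among the HIF subunits and the hydroxylases that mark them, HIF1A showed the widest gap between probe sets. HIF1A, the inducible alpha subunit, had close group means at its brightest probe set, with levels of 12.38 to 13.46 (median 12.87) with normal ALP and 12.26 to 13.50 (median 13.00) with increased ALP and a difference of -0.046 ± 0.20 (SE; unadjusted p = 0.818, adjusted p = 0.982 in limma). A second HIF1A probe set was lower with increased ALP, at 8.45 to 10.83 (median 9.27) against 6.81 to 10.09 (median 7.96). The difference there was -1.14 ± 0.43 (SE; unadjusted p = 0.0154, adjusted p = 0.713 in limma), and another, dimmer probe set stood at -0.44. The second probe set correlated with the actin 3' minus middle difference (r = -0.69, n = 18), and the brightest less so (r = 0.193). Whether RNA quality accounts for the gap was not tested. The names of these 3 probe sets all end in _s_at, so each may also bind related transcripts. That limit holds for 19 of the 44 probe sets used, whose names end in _s_at or _x_at. They include those of GPI, PFKP, PGK1, ENO1, CA9, ADM, ANKRD37 and DDIT4.

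EPAS1, which encodes the HIF2 alpha subunit of endothelial and other cells, had the largest negative difference of all members, at 6.20 to 9.30 (median 7.55) with normal ALP and 5.67 to 8.41 (median 7.17) with increased ALP. The difference was -0.75 ± 0.38 (SE; unadjusted p = 0.061, adjusted p = 0.823 in limma), and it was -0.34 when the actin measure was a covariate and -0.39 with the mean of its probe sets. Increased ALP replicate 6 was lowest in EPAS1, at 5.67, and normal ALP replicate 3 highest, at 9.30. ARNT, the constant beta partner, kept within 6.81 to 7.29 (median 6.98) with normal ALP and 6.92 to 7.29 (median 7.15) with increased ALP, a difference of 0.13 ± 0.079 (SE; unadjusted p = 0.13, adjusted p = 0.85 in limma). The prolyl hydroxylase EGLN1 ran from 7.93 to 9.73 over the 18 tumours (mean 8.82), with a difference of -0.057, and the HIF-induced EGLN3 was dim, from 5.42 to 7.64 over the 18 tumours (mean 6.09).

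Further genes of both pathways were counted over whole lists, which were also drawn up with earlier results of these data known. Of 20 tested genes of glycolysis and pyruvate use, 0 passed the adjusted threshold, 6 were higher and 14 lower (median difference -0.10). DLAT, the acetyltransferase core of pyruvate dehydrogenase, was 7.21 ± 0.59 with normal ALP and 6.35 ± 0.75 with increased ALP (SD, n = 9 each). Its difference was -0.86 ± 0.30 (SE; unadjusted p = 0.00915, adjusted p = 0.657 in limma). SLC16A7 (MCT2), a pyruvate and lactate carrier, stood at -0.27 ± 0.12 (SE), the muscle enolase ENO3 at -0.42 ± 0.24, and MPC1, a subunit of the mitochondrial pyruvate carrier, at -0.30 ± 0.20.

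Of 25 tested genes of the wider hypoxia response, 0 passed, 10 were higher and 15 lower (median difference -0.065). VHL, the ubiquitin ligase subunit that binds hydroxylated HIF alpha, had the smallest p of these lists, at 7.41 ± 0.36 with normal ALP and 6.80 ± 0.49 with increased ALP (SD, n = 9 each). Its difference was -0.61 ± 0.20 (SE; unadjusted p = 0.00603, adjusted p = 0.625 in limma). The glycogen branching enzyme GBE1 stood at -0.26 ± 0.13 (SE), CITED2, which competes with HIF for its co-activators, at -0.42 ± 0.23, and VLDLR, a lipoprotein receptor, at -0.39 ± 0.24. At an unadjusted p under 0.05 there were 2 of the 20 genes of the first list and 1 of the 25 of the second. The same threshold took 6.14% of all probe sets, so both counts are near that background. Over all probe sets tested, 13268 of 25754 had a higher mean.

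Single tumours stood out across many members. Increased ALP replicate 6 held the highest level of 15 of 40 members (the 39 tested and GAPDH), or 37.5%, and of 11.1% of all 10716 tested genes with 1 symbol. Its highest members included 6 of 16 enzymes, 4 of 7 genes of fuel transport and control, and 5 of 14 other hypoxia targets. For HK2 it stood at 7.47 against at most 7.06 in all other tumours, for VEGFA at 11.95 against 11.19, and for ADM at 12.59 against 11.29. This array was 1 of the 2 of high spike-in signal. The other, increased ALP replicate 3, held the lowest level of 8 of 40 members, or 20% against 8.86% of all genes, and the highest of 0. For some members the 2 arrays lay at the same end. Increased ALP replicates 6 and 3 were the lowest tumours in HK1 (7.01 and 7.43) and the highest in PFKL (11.75 and 11.19). The part of array quality in these levels was not tested. Without increased ALP replicate 6 the difference was -0.31 for ALDOC, -0.052 for HK2, -0.25 for CA9 and -0.52 for SLC2A3. Without both arrays 0 members were called, and GPI alone had an unadjusted p under 0.05.

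Normal ALP replicate 2 was highest for 7 of 40 members, or 17.5%, and for 11.1% of all genes. The 7 included PFKP at 9.78, LDHA at 14.20 and SLC16A1 at 8.16. It was also the tumour of highest cell division markers. Increased ALP replicate 8 was lowest for 9 members, or 22.5% against 6.24% of all genes, ADM at 7.34 among them, yet highest for PDK1 at 12.34 and INSIG2 at 11.23, and it had the highest osteoblast markers. Normal ALP replicate 3 was lowest for 6 members, or 15% against 7.85% of all genes, with VEGFA at 9.23 and ENO1 at 12.72, and its cell division markers were the lowest of all tumours. What cell content contributes to these levels was not tested.

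**Figure D3:**
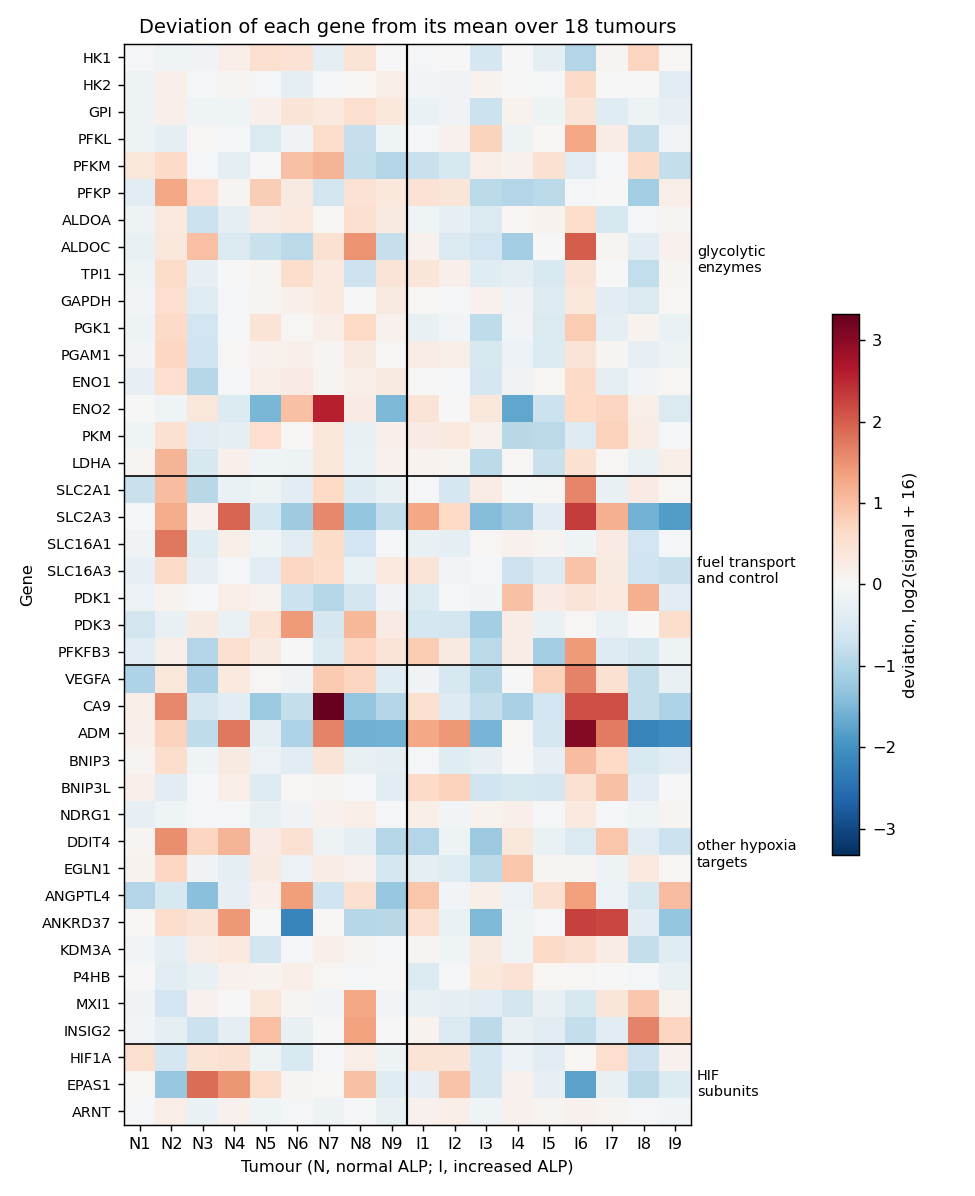
Deviation of each member (rows, in 4 lists) from its own mean in each of 18 tumours (columns; N, normal ALP; I, increased ALP), in log2(signal + 16); red is above and blue below the mean. Column I6 is red over most enzymes, transporters and hypoxia targets but blue for EPAS1 (5.67), and SLC2A3, CA9, ADM and ANKRD37 vary more than most rows.

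Whether members rose and fell together across tumours was asked for 17 pairs of genes and for 13 pairs of a gene with the markers of another cell type, each over 18 tumours with 100000 two-sided permutations and adjustment over the 30 relations. Of these 30, 4 passed, each a pair of glycolytic enzymes. PGK1 and ENO1 had r = 0.824 (permutation p = 3e-05, adjusted p = 9e-04; rho = 0.785, permutation p = 3.40e-04, adjusted p = 0.0051). Their r was 0.738 without the 2 tumours farthest from the median of PGK1, 0.873 within the normal and 0.835 within the increased group. GPI and ALDOA had r = 0.803 (permutation p = 8e-05, adjusted p = 0.0012; rho = 0.73, permutation p = 9e-04, adjusted p = 0.009), and r was 0.747 without the 2 tumours farthest from the median of GPI, 0.854 within the normal and 0.849 within the increased group. TPI1 and GAPDH had r = 0.728 (permutation p = 7.70e-04, adjusted p = 0.0077; rho = 0.769, permutation p = 2.50e-04, adjusted p = 0.0051), and r was 0.752 without the 2 tumours farthest from the median of TPI1, 0.724 within the normal and 0.692 within the increased group. For PGK1 and LDHA the linear relation passed, with r = 0.666 (permutation p = 0.00227, adjusted p = 0.017; rho = 0.476, permutation p = 0.0473, adjusted p = 0.234). Its rank relation did not, and r was 0.519 without increased ALP replicates 3 and 6, so it rests in part on these tumours.

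The other 13 gene pairs were not called. The vessel factor VEGFA had r = 0.557 with ADM (adjusted permutation p = 0.082), 0.531 with CA9 (0.0981), 0.503 with NDRG1 (0.111) and 0.39 with LDHA (0.206). SLC2A1 and CA9 had r = 0.571 (adjusted permutation p = 0.082), which was 0.335 without increased ALP replicate 6 and normal ALP replicate 2. HIF1A mRNA and VEGFA were far from a called relation (r = 6.49e-04, permutation p = 0.998). Without normal ALP replicate 8 the pairs of VEGFA with ADM (r = 0.659) and with CA9 (r = 0.622) would pass, and without increased ALP replicate 7 that of SLC2A1 with CA9 (r = 0.662). PDK1 had r = -0.00394 with PGK1 and 0.198 with SLC2A1. The remaining pairs were LDHA with SLC16A3 (0.483), HIF1A with EPAS1 (0.51), BNIP3 with BNIP3L (0.424) and with PGK1 (0.398), and PKM with PGAM1 (0.405).

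**Figure D4:**
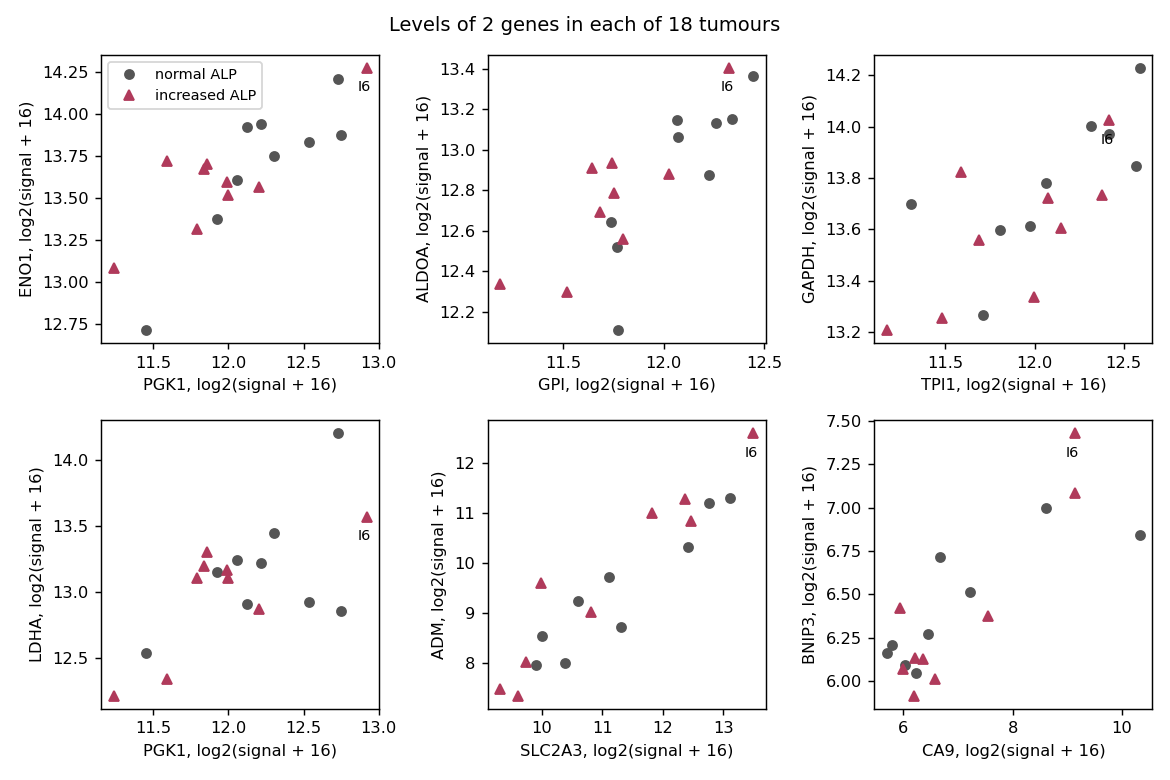
Levels of 2 genes in each of 18 tumours (log2(signal + 16) on both axes; circles, normal ALP; triangles, increased ALP; I6, increased ALP replicate 6). The 4 pairs that passed the test come first; SLC2A3 with ADM (r = 0.934) and CA9 with BNIP3 (r = 0.836) were chosen after their values were seen.

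The correlations among all members held 2 sets of genes with high r within each. They were picked from the plot of correlations after it was seen, share the same 18 arrays, and are described without a test. Among all pairs of enzymes the median r was 0.232, among other hypoxia targets 0.105 and between these lists 0.127, while it was 0 among all pairs of tested genes. The first set held GPI, ALDOA, TPI1, GAPDH, PGK1, PGAM1, ENO1 and LDHA, 8 of the 16 measured enzymes. Their 28 pairs had a median r of 0.642 (range 0.274 to 0.904). Of the enzymes left out, PKM had r between -0.13 and 0.40 with these 8, PFKL between -0.14 and 0.36, and PFKP between 0.20 and 0.59. Genes of the other lists also ran with this set. PFKFB3 had r between 0.47 and 0.77 with the 8 enzymes, and VEGFA between 0.27 and 0.66. ALDOA and ENO1 were closest, at r = 0.904. The second set held SLC2A3, CA9, ADM, BNIP3 and ANKRD37, whose 10 pairs had a median r of 0.805 (range 0.621 to 0.934). Between the sets the median r was 0.265 (0.0855 within the normal and 0.491 within the increased group), and it was 0.0233 without increased ALP replicates 3 and 6.

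**Figure D5:**
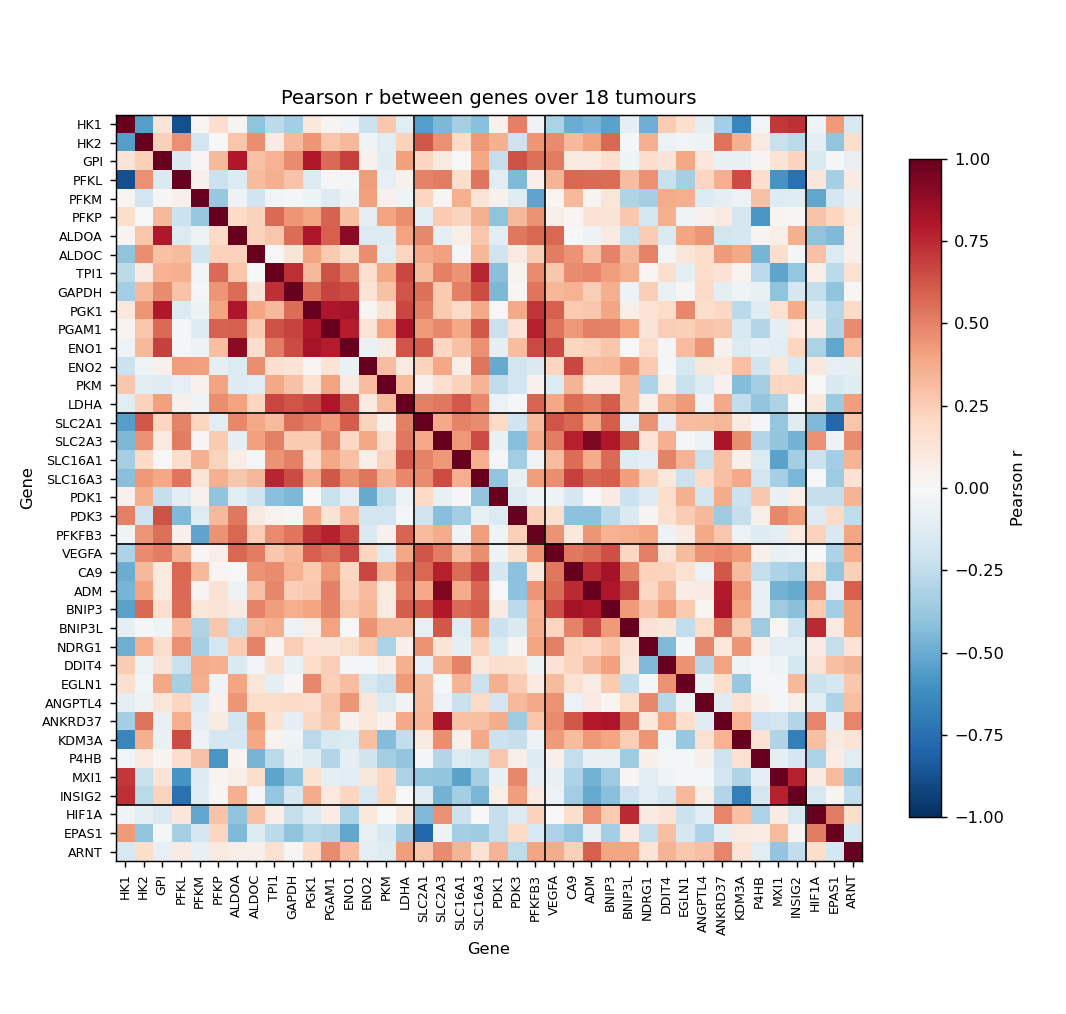
Pearson r between each pair of 40 members over 18 tumours (rows and columns in the same order; lines part the 4 lists). The chosen enzymes GPI, ALDOA, TPI1, GAPDH, PGK1, PGAM1, ENO1 and LDHA are red among themselves (median r 0.642). So is the set of SLC2A3, CA9, ADM, BNIP3 and ANKRD37 (0.805). HK1 is blue against PFKL (r = -0.881).

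The ranking of tumours by these 2 sets matched in some tumours and not in others. The mean deviation of the second set from its average over tumours was 2.15 in increased ALP replicate 6, 1.59 in increased ALP replicate 7, 1.40 in normal ALP replicate 7 and 1.01 in normal ALP replicate 4. Among them, increased ALP replicate 6 ranked number 2 and normal ALP replicate 7 number 5 of 18 for the enzymes of the first set. Normal ALP replicate 2, number 1 for these enzymes, was number 5 for the second set. By contrast, increased ALP replicate 7 ranked number 14 for the enzymes, at -0.22, and normal ALP replicate 4 number 11, at -0.049. Normal ALP replicate 6 had the opposite pattern, at 0.23 for the enzymes and -1.11 for the second set. High and low tumours of the second set came from both ALP groups, with a range of -1.11 to 1.40 with normal and -1.32 to 2.15 with increased ALP. Its correlation with the 3 quality measures lay between 0.154 and 0.219.

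The tightest single pair among all members was SLC2A3 and ADM, at r = 0.934 (rho 0.915) over 18 tumours. It was 0.937 within the normal and 0.956 within the increased group, 0.907 without the 2 tumours farthest from the median of SLC2A3, and 0.91 at a second SLC2A3 probe set. CA9 and BNIP3 had r = 0.836 (rho 0.643), and 0.822 (rho 0.662) with the second CA9 probe set. Their r was 0.863 without the 2 tumours farthest from the median of CA9. BNIP3 was dim, with a mean of 6.41, and the median of CA9 was 6.45 with normal and 6.37 with increased ALP. Both lay near the filter level, so this pair had little range outside its high tumours. MXI1 and INSIG2 had r = 0.771, and both ran against PFKL, at -0.588 and -0.747. For MXI1 with INSIG2 rho was 0.534, and r was 0.467 without normal ALP replicate 8 and increased ALP replicate 8. INSIG2 and PFKL correlated with the GAPDH 3' minus 5' difference in opposite directions (r = -0.534 and 0.721), and its part in their r was not tested. EPAS1 ran against SLC2A1, at r = -0.784, and at -0.616 without normal ALP replicate 3 and increased ALP replicate 6. HK1 and PFKL, at r = -0.881, were the most opposed pair, but a second HK1 probe set gave 0.485, and both genes followed the GAPDH 3' minus 5' difference (r = -0.743 and 0.721). HIF1A and BNIP3L had r = 0.745, and 0.234 at the second HIF1A probe set.

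Markers of other cell types were set against the members they could supply, and 0 of 13 such relations passed. Skeletal muscle is rich in glycolytic enzymes. Of its 12 markers 11 had a probe set and 8 passed the filter, and their summed level was highest at 15.75 in normal ALP replicate 1 and 14.08 in increased ALP replicate 4, against group medians of 10.02 and 10.18. Neither PFKM (r = 0.0252, permutation p = 0.924) nor ALDOA (r = 0.0321, permutation p = 0.902) followed them. Endothelial markers, all 11 above the filter, gave r = 0.407 with EPAS1, 0.25 with ADM and -0.294 with VEGFA (adjusted permutation p = 0.203, 0.47 and 0.393). Within the normal and the increased group r was 0.715 and 0.359 for EPAS1, -0.212 and 0.721 for ADM, and -0.738 and 0.179 for VEGFA. These differences between the groups were not tested. The summed endothelial level was 11.53 to 14.42 with normal and 11.96 to 14.35 with increased ALP.

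Neutrophil markers, with 7 of 9 on the array and all 7 above the filter, summed to 8.93 to 12.05 with normal and 9.12 to 13.18 with increased ALP, and gave r = 0.232 with SLC2A3 and 0.215 with PFKFB3. ANGPTL4, a gene also active in fat, had r = 0.246 with the 6 of 8 fat cell markers above the filter, whose sum was highest in increased ALP replicate 1 at 14.86. EPAS1 had r = 0.0444 with the same markers, and HIF1A 0.0361 with the 11 macrophage markers. Cell division markers, with 12 of 15 above the filter, gave with PGAM1 r = 0.974 with normal and -0.713 with increased ALP (pooled r = 0.413, adjusted permutation p = 0.203), and the pooled r was -0.364 without normal ALP replicates 2 and 3; the difference between the groups was not tested. For LDHA the values within the normal and the increased group were 0.703 and -0.484. Its pooled r was 0.304 (rho -0.162), and -0.414 without normal ALP replicates 2 and 3. LDHA had r = -0.263 with osteoblast markers. The 3 red cell markers with a probe set all lay below the filter, and the relation of CA12 with cartilage markers was not computed because CA12 is below it too.

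Among 10561 other tested genes, the 5 whose levels were most like the mean of the 16 enzymes over 18 tumours were B3GNT3 (0.788), TUBB1 (0.784), HSBP1 (0.766), LOC488256 (0.746) and VANGL1 (0.731), with Pearson r in parentheses. HSBP1, a heat shock factor binding protein, and VANGL1, a planar cell polarity protein, were the brighter ones, at 10.44 to 11.67 and 7.47 to 9.40. Those most like the mean of the 14 other hypoxia targets were IRS1 (0.796), NFIL3 (0.777), RAB9A (0.776), SOCS3 (0.753) and SNAPC1 (0.753). NFIL3, a transcription repressor, ran from 9.36 to 12.32, SOCS3, which dampens cytokine signalling, from 5.93 to 7.26, and IRS1, an adaptor of the insulin receptor, from 6.38 to 7.13. They were the top of a ranking, so their r is a description with no p. Without the 2 tumours farthest from the median of each mean, r was 0.492 to 0.752 for the first and 0.577 to 0.673 for the second set.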

How the data were processed

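RNA of 18 canine tumours was measured on 1-colour Affymetrix arrays, 1 per tumour, from biotin-labelled cRNA per the labels' protocols. The deposited values are log2 signals of 43035 probe sets, and the submitters' processing notes name MAS5, with no version or step; the summary and normalization methods are not given in the sources used here. The values were made linear, an offset of 16 was added, and log2 was taken. After setting aside 111 control probe sets and those with a mean below the 40th percentile (6.149), 25754 were tested for the 9 against 9 tumours with limma 3.58.1 in R 4.3.3 (intensity trend, two-sided, Benjamini-Hochberg, threshold 0.05). The precision is limited by the number of arrays. The fit and the permutation test were tested on simulated data.

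Names came from the platform annotation (29257 probe sets with 1 symbol, 439 with several); of the 44 probe sets used, 40 have a gene identifier in the RefSeq table of UU_Cfam_GSD_1.0. No coordinates or sequences are given. GAPDH uses its 3' control probe set, which carries that symbol. Members and lists were chosen with earlier results of these data known. Values in full are given for the members of smallest p or widest range in each list, for GAPDH, HIF1A, VEGFA, LDHA and CA9, and for members with an outlying tumour. The labels number the tissues but do not state that each came from a different dog, so p-values measure the spread between these samples. The labels do not say whether equal numbers pair tumours, and the tumours were treated as unpaired. Correlations of deviations between same-numbered tumours lay between -0.164 and 0.27, which cannot exclude a pairing by design. No array was duplicated (highest correlation 0.982). Alternatives were other offsets, filters, normalizations, probe set means, eBayes options, array weights, a replicate block, the 2 RNA quality covariates and leaving out each array; leaving out increased ALP replicates 3 and 6, and keeping the GAPDH control probe sets in the fit, were chosen after seeing the data. Figures were drawn with matplotlib 3.10.9, and correlations came from SciPy 1.17.1, pandas 2.3.3 and NumPy 2.4.6 under Python 3.11.15.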

Additional observations from a re-analysis of the deposited data

Results flagged for a closer look

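Of 88 sets of 9 values (44 members in 2 groups), 3 held a tumour whose gap to the nearest of its group exceeded Dixon's 95% critical value as a share of the range, fewer than the 1 in 20 that chance gives. All 3 were increased ALP replicate 6. SLC2A1 stood at 10.89 there, with the next tumour of its group at 9.52 and the group median at 9.30. ALDOC stood at 11.30, with the next at 9.44 and the median at 9.27. HK2 stood at 7.47, with the next at 6.98 and the median at 6.82. The other 2 SLC2A1 probe sets correlated with the one used at 0.858 and 0.945, the second of ALDOC at 0.936 and the second of HK2 at 0.642. This array also had a high spike-in signal and the largest GAPDH 3' minus 5' difference of all 18, with which HK2 correlated at r = 0.672, SLC2A1 at 0.379 and ALDOC at 0.342. The part of RNA quality in these levels was not tested.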

How the results depend on the processing

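No probe set and no member was called under any of the 34 alternatives run, 18 of which left out 1 array; in the reported limma fit the smallest adjusted p was 0.608 and 1582 probe sets had an unadjusted p under 0.05. Over the 8 alternatives other than leaving out 1 array for which these were tabulated, the smallest adjusted p was 0.0684 with the replicate block, 0.423 with no filter and 0.454 at a filter of the 60th percentile, and 849 to 2625 probe sets had an unadjusted p under 0.05. Of 26 member differences followed, 16 kept their direction throughout. The calls of PGK1 with ENO1, GPI with ALDOA and TPI1 with GAPDH held under every alternative in which relations were recomputed, while that of PGK1 with LDHA was lost without increased ALP replicates 3 and 6 (r = 0.519, adjusted permutation p = 0.147), with the mean of all probe sets of a gene (r = 0.521, adjusted p = 0.0987) and without any 1 of 4 arrays (r = 0.571 for increased ALP replicate 3, 0.632 for increased ALP replicate 5, 0.606 for normal ALP replicate 2 and 0.629 for normal ALP replicate 3). With the mean of all probe sets, HIF1A with EPAS1 (r = 0.799), VEGFA with ADM (0.606) and VEGFA with CA9 (0.593) were called as well. Leaving out 1 array brought a call for VEGFA with ADM (r = 0.625 when increased ALP replicate 2 was left out and 0.659 for normal ALP replicate 8), for VEGFA with CA9 (0.622 without normal ALP replicate 8) and for SLC2A1 with CA9 (0.662 without increased ALP replicate 7). With 75th percentile scaling, the r of PGK1 and PDK1 (0.0268) changed sign. With the GAPDH measure as a covariate, the differences of HK2 (-0.084), VEGFA (-0.044), CA9 (-0.12) changed sign. With the actin measure as a covariate, the differences of PFKM (0.15), VEGFA (-0.14), CA9 (-0.45) changed sign. With array weights, the differences of HK2 (-0.042), ALDOC (0.073), ENO2 (0.14) changed sign. At a filter of the 60th percentile, the r of PFKM and skeletal muscle markers (-0.00702) changed sign. Without increased ALP replicates 3 and 6, the differences of HK2 (-0.08), VEGFA (-0.029), CA9 (-0.18), HIF1A (0.023) and the r of HIF1A and VEGFA (-0.161), ALDOA and skeletal muscle markers (-0.00337), HIF1A and macrophage markers (-0.0185) changed sign. With the mean of all probe sets of a gene, the differences of PFKFB3 (1.6e-05), VEGFA (-0.019), CA9 (-0.12) and the r of HIF1A and VEGFA (-0.0654), HIF1A and macrophage markers (-0.0242) changed sign. With an offset of 64, the difference of CA9 (-0.018) changed sign. On leaving out 1 array, sign changes were seen in the differences of CA9 (-0.26 to 0.43), ALDOC (-0.31 to 0.13), PFKFB3 (-0.27 to 0.055), HIF1A (-0.12 to 0.036), ENO2 (-0.33 to 0.18), VEGFA (-0.14 to 0.18), HK2 (-0.052 to 0.071), ADM (-0.12 to 0.53), SLC2A3 (-0.52 to 0.009), and in the r of PFKM and skeletal muscle markers (-0.143 to 0.118), HIF1A and macrophage markers (-0.0721 to 0.113), EPAS1 and fat cell markers (-0.0539 to 0.131), HIF1A and VEGFA (-0.122 to 0.116), PGK1 and PDK1 (-0.108 to 0.112), PFKFB3 and neutrophil markers (-0.0116 to 0.56), ALDOA and skeletal muscle markers (-0.0139 to 0.196). The cause was not tested. The replicate block, which uses the tissue number although the labels give it no meaning, called 0 probe sets and 0 members (smallest adjusted p = 0.0684), with a median difference of the glycolytic enzymes of -0.15; same-numbered tumours correlated best with each other in 0 of 9 cases. Dim probe sets, such as those of BNIP3, SLC16A1 and NDRG1, carry little range above background, and detection calls were not used here.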

Other observations

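Other probe sets of a member gave the opposite direction in 10 of 37 tested cases, namely for HK1, HK2, PFKL, GAPDH, PKM, SLC2A1, VEGFA, CA9, KDM3A and P4HB. The largest unadjusted difference at any tested probe set of a member was that of the second HIF1A probe set, -1.14 (exact two-sided permutation p = 0.0256, not adjusted). A second TPI1 probe set stood at -0.64 ± 0.28 (SE), against -0.20 at the probe set used, and correlated with the GAPDH 3' minus 5' difference at r = -0.618. These values were picked after they were seen.

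Endothelial markers and the mean of the 16 enzymes ran in opposite directions among tumours with normal ALP (r = -0.976, 9 tumours) and not among those with increased ALP (r = 0.418, 9 tumours). Normal ALP replicates 2 and 7 had the highest enzyme means of their group, 0.44 and 0.37, and the lowest endothelial means, -1.19 and -1.18. The pair was noticed among many correlations, and the difference between the groups was not tested.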
